A study of Mus musculus with 6 samples.

Results

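Vascular smooth muscle cells (VSMCs) were read out from single-cell RNA-seq of sorted non-immune mouse lung cells, and 641 of the 38208 cells kept were counted as VSMCs. A cell was a VSMC when at least 4 of 5 smooth muscle genes (*Myh11*, *Cnn1*, *Lmod1*, *Acta2* and *Tpm2*) had 1 or more unique molecular identifiers (UMIs, 1 for each RNA molecule caught). The rule also allowed at most 2 of 5 endothelial genes (*Egfl7*, *Tie1*, *Pecam1*, *Cldn5* and *Cdh5*), 1 of 3 myofibroblast genes (*Aspn*, *Hhip* and *Lgr6*), 1 of 3 pericyte genes (*Higd1b*, *Cox4i2* and *Trpc6*) and 2 of 4 adventitial fibroblast genes (*Serpinf1*, *Scara5*, *Clec3b* and *Pi16*). These 20 genes chose the cells, so their values are given as a description and no result is drawn from a test of them. Those with enough counts were still among the genes tested between genotypes below. There, 1 myofibroblast gene and 1 adventitial gene of the rule were called lower in TNF-Tg. Of the 641 VSMCs, 470 held all 5 smooth muscle genes and 171 held 4. A further 89 cells that met the other limits but held 3 of the 5 lay just outside the rule.

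The lungs were from female mice aged 8, 14 or 20 weeks, either TNF-Tg mice, which carry a human TNF transgene and develop pulmonary hypertension, or littermate wild-type (WT) controls. In both genotypes viable cells lacking CD45, a surface protein of immune cells, and CD326, a surface protein of epithelial cells, were sorted before capture, so that VSMC numbers are shares of what passed the sort and the tissue digestion. Each genotype had 1 library at each age, with the lungs of several mice in it, and mice within a library could not be told apart. The 3 ages therefore served as the replicates of a genotype, and every p-value measures the difference against the spread between these 3 libraries, age included. The transgene is a human sequence outside the mouse reference, and its RNA was not analysed here.

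VSMCs form the muscular coat of arteries and veins, where an actin and myosin apparatus, switched on by calcium through myosin light chain kinase, sets the width of the vessel. Endothelin and other vasoactive ligands tighten the coat, while nitric oxide relaxes it through guanylate cyclase and cyclic GMP, a signal that phosphodiesterase 5 ends. TNF is an inflammatory cytokine whose receptors release the transcription factor NF-κB from its inhibitor, and injured VSMCs are known to lower contractile genes and to make matrix and chemokines.

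WT libraries held 58, 34 and 58 VSMCs at 8, 14 and 20 weeks, and TNF-Tg libraries held 90, 209 and 192. Their summed UMIs were 441309, 253677 and 529370 in WT and 1171867, 3030296 and 2656058 in TNF-Tg. The median UMIs per VSMC were 7585, 6634 and 9571.5 in WT against 12678.5, 13732 and 12825 in TNF-Tg, so that every TNF-Tg library was deeper, as were all cells kept (medians of 4455 to 4766 UMIs against 9179 to 9808). A rule that counts genes with a UMI depends on that depth, and shares were for this reason also taken after each cell had been thinned to 2000 UMIs. Mitochondrial transcripts made up a median of 3.61% to 4.87% of the UMIs of VSMCs in WT and 3.92% to 4.65% in TNF-Tg, ranges that overlapped. Between any pair of libraries, 6 to 24 cell barcodes were shared, 0.0918% to 0.313% of the smaller library.

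The label was checked against 10 further smooth muscle genes that the rule did not use, among them *Tagln*, *Myl9*, *Mylk* and *Smtn*. All 10 had UMIs in each library and together made up 18291, 11172 and 17560.5 CPM (UMIs of a gene per 1000000 UMIs of the VSMCs of a library) in WT against 18402, 14621 and 13006 CPM in TNF-Tg. Mean *Tagln*, an actin-binding protein of smooth muscle, was 7916 CPM in VSMCs of WT, 34.7 CPM in adventitial fibroblasts, 4058 CPM in myofibroblasts and 2045 CPM in pericytes. In TNF-Tg it was 8902 CPM in VSMCs, 8134 CPM in myofibroblasts and 6385 CPM in pericytes, so that this marker parts the VSMCs from fibroblasts but not clearly from the contractile gates nearest to them. The rule holds no gene that parts vascular from airway smooth muscle, and a summed 1746 to 2749 CPM of genes shared with airway smooth muscle and myofibroblasts, led by *Des*, was found in all 6 libraries, so the origin of each cell from a vessel or an airway cannot be told apart here. Among the genes of the rule, *Acta2* stood at 11532, 6536 and 12003 CPM in WT against 12268, 9458 and 7816 CPM in TNF-Tg, and *Myh11* at 2708, 2574 and 4262 CPM in WT against 3143, 1835 and 1820 CPM in TNF-Tg.

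VSMCs made up a larger share of the cells at every age in TNF-Tg lungs. They were 0.902%, 0.562% and 0.833% of the cells kept in WT at 8, 14 and 20 weeks, and 1.36%, 3.59% and 3.03% in TNF-Tg. The lowest TNF-Tg library lay above the highest WT library, and the means were 0.766% ± 0.180 and 2.66% ± 1.16 (SD, n = 3 libraries). The difference had p = 0.1 in a two-sided exact permutation test, which is the smallest value that 3 libraries against 3 can give. At 2000 UMIs per cell the shares were 0.908%, 0.795% and 1.23% in WT and 2.28%, 6.41% and 3.64% in TNF-Tg, again without overlap. The rule was applied anew to the thinned cells, which let markers of other cells drop out too, so that 910 cells passed it, and cells under 2000 UMIs were left out (591, 391 and 382 in WT, and 124, 262 and 112 in TNF-Tg). Because the shares of one library sum to a whole, a gain of VSMCs and a loss of other cells, or unequal recovery from the sort, cannot be told apart.

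Of the cells of 4 mesenchymal gates, namely VSMCs, myofibroblasts, pericytes and adventitial fibroblasts, VSMCs were 13.1%, 11.3% and 13.8% in WT and 24.4%, 32.8% and 27.9% in TNF-Tg. The means were 12.7% ± 1.28 and 28.4% ± 4.20 (SD, n = 3), with p = 0.1 in the same two-sided exact permutation test. Within that denominator VSMCs were therefore 2.23-fold more frequent in TNF-Tg. The other gates are not sharply parted from VSMCs. Of 1666 cells with at least 4 of the 5 smooth muscle genes, 629 were left out by the limit on myofibroblast genes, 324 by that on pericyte genes, 222 by that on endothelial genes and 9 by that on adventitial genes, counting a cell under each limit it broke. By library, the 1666 were 178, 115 and 175 in WT and 263, 555 and 380 in TNF-Tg. The myofibroblast limit left out 80, 50 and 82 of them in WT and 118, 170 and 129 in TNF-Tg. The pericyte limit left out 32, 24 and 29 in WT and 44, 149 and 46 in TNF-Tg. With neither limit, 152, 97 and 152 cells in WT and 223, 464 and 350 in TNF-Tg passed the rest of the rule. The part of these limits in the higher share was not tested.

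**Figure D1:**
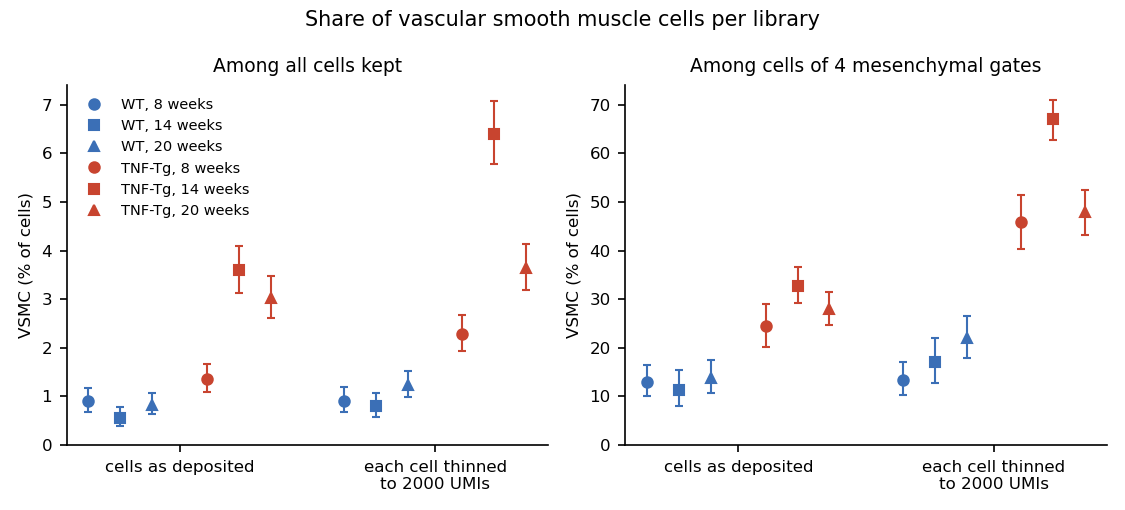
Share of VSMCs in each library (x axis, genotype and age) as a percentage of all cells kept (left) and of the cells of 4 mesenchymal gates (right), as deposited and after thinning to 2000 UMIs per cell. Bars are 95% exact binomial intervals, which cover counting error only. Every TNF-Tg library lies above every WT library in both panels, as in 1.36% to 3.59% against 0.562% to 0.902% of all cells kept.

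Between genotypes, the summed UMIs of the VSMCs were compared by edgeR's quasi-likelihood test with Benjamini-Hochberg adjustment over 7990 genes with enough counts. At an adjusted p under 0.05, 552 genes (6.91%) differed, 283 higher in TNF-Tg (3.54%) and 269 lower (3.37%). The 3 libraries of one genotype lay wholly above those of the other in 2096 genes (26.2%). A gene called here is one that passed the adjusted test, log2 fold changes are TNF-Tg over WT with their standard error (SE), and a called gene that is said to be lost without a library no longer passed when the comparison was made on the other libraries.

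Of 33 tested members of a list of 49 TNF and NF-κB genes, 12 were called higher and 1 lower, and 20 were not called. The share called was 39.4%, against 6.91% of all genes tested, and the median log2 fold change was 1.42 against 0.00 over all genes tested. The 12 came down to 7 without the WT library of 8 weeks, 6 without that of 20 weeks and 4 of 15 tested with each cell thinned to 2000 UMIs. They came up to 16 with DESeq2 in place of edgeR, and to 17 with age as a block or without the TNF-Tg library of 8 weeks. Without exclusion of cells by myofibroblast and pericyte genes, 19 of 37 tested were higher. *Ccl2*, the chemokine that draws monocytes, had no UMI in VSMCs of any WT library and was at 631, 797 and 1611 CPM in TNF-Tg at 8, 14 and 20 weeks. Set against 3 UMIs over the 3 WT libraries (2.45 CPM), it was at least 442-fold higher in TNF-Tg (adjusted p = 0.0488 by edgeR). The *Ccl2* call sat close to the threshold and was lost without any one of the 3 WT libraries, or without the library of 8 or of 14 weeks from TNF-Tg mice, while *Ccl2* remained at 0 UMIs in every WT library. *Ccl7*, a neighbouring monocyte chemokine, likewise had no UMI in WT and 3114 UMIs in TNF-Tg, at least 185-fold, and did not pass (adjusted p = 0.306). *Cxcl1*, a neutrophil chemokine, was at 4.53, 3.94 and 1.89 CPM in WT against 43.5, 53.5 and 102 CPM in TNF-Tg, 19.8-fold higher (log2 fold change 4.31, SE 0.66, adjusted p = 0.00488). The genotypes did not overlap for *Cxcl1*, and its call was lost without the WT library of 8 weeks (4.67) or 20 weeks (3.94).

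Of the regulators and subunits of NF-κB, *Tnfaip3*, *Nfkbia*, *Relb* and *Nfkb2* rose, while the genotypes overlapped in the subunits *Nfkb1* (74.8, 51.2 and 37.8 CPM in WT against 62.3, 69.3 and 94.5 CPM in TNF-Tg) and *Rel* and in the inhibitor *Nfkbib*. They did not overlap in the subunit *Rela* (52.1, 59.1 and 85.0 CPM in WT against 85.3, 99.7 and 102 CPM in TNF-Tg). Nor did they in the inhibitor *Nfkbie* (6.80, 19.7 and 1.89 CPM against 31.6, 53.8 and 58.0 CPM). *Tnfaip3*, which encodes the ubiquitin-editing inhibitor A20, was at 11.3, 3.94 and 9.45 CPM in WT against 52.1, 73.3 and 99.8 CPM in TNF-Tg, 8.31-fold higher (log2 3.05, SE 0.39, adjusted p = 0.000413). *Nfkbia*, the inhibitor that holds NF-κB in the cytoplasm, rose from 218, 177 and 134 CPM to 593, 694 and 706 CPM (3.73-fold, log2 1.90, SE 0.18, adjusted p = 3.56e-05). The subunits of the non-canonical arm rose too, *Relb* from 9.06, 23.7 and 18.9 CPM to 61.4, 77.2 and 85.1 CPM (log2 2.17, SE 0.29) and *Nfkb2* from 9.06, 15.8 and 28.3 CPM to 56.3, 79.5 and 80.2 CPM (log2 1.94, SE 0.32). The lowest TNF-Tg library of each of these 4 genes exceeded the highest WT library, and each call was kept under every alternative in which the gene was tested. *Cx3cl1*, a membrane-bound chemokine, was also called (log2 2.86, adjusted p = 0.0474) and was lost without any one of the WT libraries (2.52 to 3.63). The call lower in TNF-Tg was *Cebpd*, a transcription factor of the acute-phase response, at 111, 158 and 121 CPM in WT against 53.8, 69.6 and 92.2 CPM in TNF-Tg (log2 -0.83, adjusted p = 0.0283), and it was lost without any one of the WT libraries or the TNF-Tg library of 14 weeks (-0.91 to -0.70).

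Some of the steepest inflammatory values did not pass the test. *C3*, the central complement protein, was at 0, 7.88 and 30.2 CPM in WT against 363, 1193 and 1748 CPM in TNF-Tg (log2 6.22, SE 1.14, adjusted p = 0.0573). *Vcam1*, an adhesion molecule for leukocytes, was at 49.9, 98.6 and 35.9 CPM in WT against 132, 386 and 542 CPM in TNF-Tg (log2 2.63, adjusted p = 0.138). For both genes the TNF-Tg libraries lay above all WT libraries and were spread widely among themselves, the 20-week value being the highest. *Cxcl10*, an interferon-induced chemokine, had 2 UMIs in WT and 1361 in TNF-Tg, a ratio of 121 with a 95% counting interval of 33.6 to 1004 (adjusted p = 0.101), and in every TNF-Tg library a single cell held most of its UMIs, 232 of 329 at 8 weeks, 805 of 891 at 14 weeks and 86 of 141 at 20 weeks.

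At 2000 UMIs per cell, *Ccl2* was seen in 19.5%, 27.4% and 32.6% of the VSMCs of TNF-Tg at 8, 14 and 20 weeks. Endothelial cells of the same libraries, at the same depth, gave 0.815%, 2.64% and 3.53%, well below the VSMC share of the same library. *C3* was seen in 34.5%, 76.0% and 75.3% of the VSMCs and in 1.39%, 7.80% and 6.22% of the endothelial cells. Without thinning, 30.0%, 45.9% and 43.2% of the VSMCs held *Ccl2* and 50%, 88.0% and 88.5% held *C3*. In each TNF-Tg library *Ccl2* was more frequent among VSMCs that held *C3*, being seen in 36.7%, 29.1% and 38.5% of the thinned VSMCs with *C3* and in 10.5%, 22.0% and 14.9% of those without it. This is a description over cells of one library, which are not replicates.

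The promoters of called genes were searched for an NF-κB motif, the letters GGGA and TTCC parted by any 2 bases, on either strand, within 250 bases upstream of a RefSeq gene start (build GRCm38.p6). It occurred in 1.36% of all 27025 genes with a promoter sequence, in 11 of 209 genes called higher (5.26%) and in 1 of 195 called lower (0.513%), and in 7 of 39 genes of the TNF and NF-κB list. A match is a description of the letters and not a site of binding. *Nfkbia*, *Cxcl1* and *B2m* are shown as genes called higher that hold the motif and whose values are described here, as the 240 bases from 250 to 11 upstream, 5′ to 3′ on the strand of the gene, with the motif in capitals. They lie at chr12:55492658-55492897 on the minus strand, chr5:90890995-90891234 on the plus strand and chr2:122147437-122147676 on the plus strand, and hold no annotated exon base. In *Cxcl1* 2 matches, 1 on each strand, overlap by all but 1 base and are capitalised as one run.
Nfkbia: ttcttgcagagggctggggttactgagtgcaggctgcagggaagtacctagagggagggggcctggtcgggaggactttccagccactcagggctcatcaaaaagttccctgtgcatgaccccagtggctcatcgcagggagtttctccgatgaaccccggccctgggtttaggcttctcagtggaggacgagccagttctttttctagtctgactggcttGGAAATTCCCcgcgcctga
Cxcl1: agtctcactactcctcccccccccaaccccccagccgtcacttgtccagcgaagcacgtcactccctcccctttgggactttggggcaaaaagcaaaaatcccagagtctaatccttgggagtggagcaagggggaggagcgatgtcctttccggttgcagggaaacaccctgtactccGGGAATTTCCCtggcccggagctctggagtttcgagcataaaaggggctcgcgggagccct
B2m: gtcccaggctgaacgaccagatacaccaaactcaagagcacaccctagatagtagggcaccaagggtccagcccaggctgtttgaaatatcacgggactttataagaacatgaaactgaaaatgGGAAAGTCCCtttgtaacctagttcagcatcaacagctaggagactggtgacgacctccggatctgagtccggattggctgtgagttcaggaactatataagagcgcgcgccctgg

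**Figure D2:**
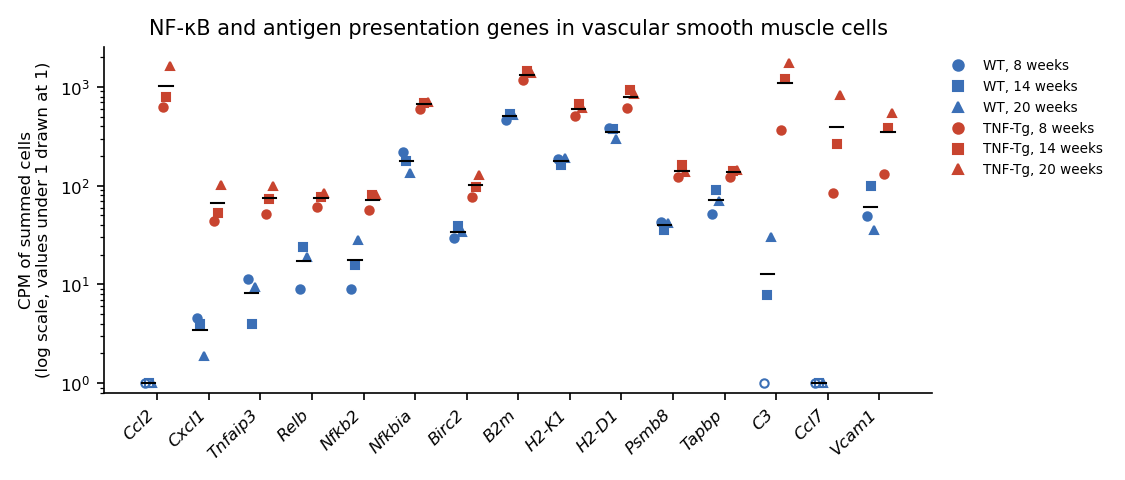
CPM in VSMCs (log y axis, values under 1 drawn at 1 as open symbols) of inflammatory genes in each library, with bars at the mean of a genotype. Each point is 1 library of 1 age. *Ccl2* sits at the floor in all 3 WT libraries and at 631 to 1611 CPM in TNF-Tg, and *Nfkbia* at 134 to 218 CPM against 593 to 706 CPM.

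Of 36 tested members of a list of 46 genes of antigen presentation and of the interferon response, 20 were called higher and the other 16 were not called. The share called higher was 55.6%, against 3.54% of all genes tested, and the median log2 fold change was 0.90. The 20 came down to 10 without the WT library of 8 weeks, 9 without that of 20 weeks and 10 without the TNF-Tg library of 14 weeks, to 9 with all 5 smooth muscle genes required, to 8 with thinned library sums and to 5 with thinned cells. *B2m*, the light chain of MHC class I, rose from 458, 528 and 523 CPM to 1178, 1442 and 1375 CPM (log2 1.39, SE 0.13, adjusted p = 3.56e-05). *H2-K1*, a class I heavy chain, rose from 188, 162 and 189 CPM to 503, 672 and 614 CPM (log2 1.70, SE 0.16, adjusted p = 3.56e-05). *Psmb8*, a subunit of the immunoproteasome that cuts the peptides to be presented, was at 43.1, 35.5 and 41.6 CPM in WT against 121, 163 and 138 CPM in TNF-Tg (log2 1.77, SE 0.20). The WT values of all 3 genes were tightly grouped and far below the TNF-Tg values, and their calls were kept in every alternative. *Ifit3*, an antiviral protein induced by interferon, was at 9.06, 11.8 and 1.89 CPM in WT against 35.8, 36.0 and 33.5 CPM in TNF-Tg (log2 2.37, SE 0.42, adjusted p = 0.00349), and reversed to -0.40 without a call when cells were not excluded by myofibroblast and pericyte genes. *Ifit1*, of the same family, rose by 1.90 on the log2 scale and lost its call without any one of the WT libraries (1.69 to 2.15), and *H2-Q7*, a further class I gene, rose by 1.82 and lost its call without the WT library of 20 weeks (1.29). Class I and *Ifit* genes have near-identical neighbours, between which reads can be split. *Serping1*, the inhibitor of the first complement component, rose from 222, 240 and 170 CPM to 338, 483 and 495 CPM (log2 1.05, SE 0.18, adjusted p = 0.0031 by edgeR). It was the 1 gene called among 8 tested of the complement list (12.5% called, against 6.91% of all genes tested). In that list DESeq2 called 2 higher, and edgeR with age as a block called 3 higher. Without the TNF-Tg library of 8 weeks, 2 were higher and 1 lower.

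Of 39 tested members of a list of 40 contractile genes, 2 were called higher and 3 lower (12.8% called, against 6.91% of all genes tested), with a median log2 fold change of -0.18. The 3 lower came to 10 without the TNF-Tg library of 8 weeks and to 1 without the WT library of 20 weeks or the TNF-Tg library of 14 or 20 weeks, and none was called lower without the WT library of 8 weeks, where 5 had an unadjusted p under 0.05 in the edgeR test. The 2 higher came to 1 without the WT or the TNF-Tg library of 14 weeks. Without exclusion of cells by myofibroblast and pericyte genes the balance turned to 7 higher and 2 lower, with a median of 0.06. *Tagln* was at 9741, 5188 and 8820 CPM in WT against 10466, 8583 and 7658 CPM in TNF-Tg, with overlapping libraries (log2 0.14, SE 0.25, adjusted p = 0.82). *Cald1*, an actin-binding brake on myosin, was at 1684, 1135 and 2057 CPM in WT against 2662, 2665 and 2602 CPM in TNF-Tg and did not pass (log2 0.67, adjusted p = 0.0569). Among the called genes, *Tpm4*, a tropomyosin of the cytoskeleton, rose from 408, 307 and 268 CPM to 412, 662 and 649 CPM (log2 0.79, SE 0.21, adjusted p = 0.042), a call lost without the library of 14 or 20 weeks of either genotype (0.67 to 0.74). *Filip1l*, a filamin-interacting protein, fell from 1094, 938 and 1005 CPM to 659, 674 and 540 CPM (log2 -0.72, SE 0.14, adjusted p = 0.0065). *Fhl1*, a LIM-domain protein of muscle, fell from 929, 631 and 860 CPM to 562, 377 and 393 CPM (log2 -0.89, adjusted p = 0.0177). The *Filip1l* call was lost without the WT library of 8 weeks (-0.64), and that of *Fhl1* without the WT library of 8 or 20 weeks or the TNF-Tg library of 14 or 20 weeks (-0.82 to -0.76). *Actc1*, the actin of heart muscle, was at 811, 721 and 1230 CPM in WT against 561, 59.1 and 45.9 CPM in TNF-Tg, where the 8-week library stood near WT and the later libraries far below, and it was not called (log2 -2.12, SE 1.20, adjusted p = 0.424).

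Of 29 tested of 33 listed regulators of smooth muscle and mesenchyme, 1 was called higher and 8 lower (31.0% called, against 6.91% of all) and 20 were not called, with a median log2 fold change of -0.37, 13 values being above 0 and 16 below. The 8 lower came down to 5 without the WT library of 8 or 20 weeks or the TNF-Tg library of 14 weeks. Without the TNF-Tg library of 8 weeks, 3 were higher and 11 lower. By edgeR none was called higher without the WT library of 14 or 20 weeks, where 4 and 4 were higher at an unadjusted p under 0.05. The T-box factors *Tbx2*, *Tbx4* and *Tbx5*, which pattern the lung mesenchyme, fell. *Tbx4* went from 118, 102 and 88.8 CPM to 30.7, 20.8 and 20.0 CPM (log2 -2.19, SE 0.23, adjusted p = 6.32e-05), *Tbx2* from 127, 130 and 96.3 CPM to 51.2, 33.3 and 39.5 CPM (log2 -1.55, SE 0.21) and *Tbx5* from 170, 82.8 and 123 CPM to 54.6, 46.2 and 39.9 CPM (log2 -1.50, SE 0.24). None of the 3 overlapped between genotypes. *Klf15*, a Krüppel-like factor, fell from 13.6, 35.5 and 30.2 CPM to 6.83, 0.99 and 7.53 CPM (adjusted p = 0.042) and was lost without any one of the WT libraries or the TNF-Tg library of 14 weeks (-2.76 to -1.81). *Myocd*, the co-activator that drives contractile genes, did not pass (log2 -0.44). The factor called higher was *Elk3*, a ternary complex partner of serum response factor (log2 1.05), lost without the WT library of 14 or 20 weeks or the TNF-Tg library of 14 weeks (0.73 to 1.06).

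Of 14 tested of 43 vasoactive receptors, 1 was higher and 3 lower (28.6% called, against 6.91% of all genes tested) with a median log2 fold change of -0.76. The 3 lower came to 5 without the TNF-Tg library of 8 weeks and to 6 with age as a block. They came to 2 without the WT library of 8 weeks or the TNF-Tg library of 14 weeks, and to 2 of 8 tested with thinned cells. With VSMCs that held an immune or epithelial UMI left out, 1 of 8 tested was lower. Both endothelin receptors fell. *Ednrb* was at 122, 122 and 108 CPM in WT against 33.3, 19.5 and 22.97 CPM in TNF-Tg (log2 -2.29, SE 0.22, adjusted p = 3.56e-05), and *Ednra*, the receptor through which endothelin tightens smooth muscle, at 136, 209 and 161 CPM in WT against 102, 71.9 and 77.9 CPM in TNF-Tg (log2 -1.01, SE 0.19, adjusted p = 0.00587). The 2 receptors kept their calls without any one library. *Ednrb* is also among the endothelial genes outside the rule, whose sums are given below. The part of endothelial RNA in its fall was not tested. *S1pr3*, a receptor for sphingosine-1-phosphate, fell by 1.27 on the log2 scale and was lost without the WT library of 8 or 14 weeks or the TNF-Tg library of 14 weeks (-1.20 to -1.03). The receptor that rose was *Htr1b*, a serotonin receptor, with 3 UMIs in WT and 183 in TNF-Tg (ratio 10.89, 95% counting interval 3.67 to 53.3, adjusted p = 0.00992), lost without the WT library of 8 or 20 weeks (2.68 and 3.08).

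Of 23 tested of 31 genes of ion channels and calcium handling, 1 was higher and 3 lower (17.4% called, against 6.91% of all genes tested) with a median log2 fold change of -0.36. Without exclusion of cells by myofibroblast and pericyte genes the balance turned to 5 higher and 2 lower, with a median of -0.07. The 3 lower came down to 1 without the WT library of 20 weeks, and none was called lower by edgeR without the WT library of 8 weeks or the TNF-Tg library of 14 or 20 weeks, where 5, 4 and 5 had an unadjusted p under 0.05. With all 5 smooth muscle genes required edgeR called none lower, and 4 were lower at that p. With thinned library sums or thinned cells edgeR called none of 14 and 13 tested lower, and 3 and 1 were lower at that p. The median was -0.02 with thinned cells. *Cacna1c*, the pore of the L-type calcium channel, was at 177, 106 and 147 CPM in WT against 101, 80.5 and 65.9 CPM in TNF-Tg (log2 -0.87, adjusted p = 0.026). *Kcna5* and *Abcc9*, which form a voltage-gated and part of an ATP-sensitive potassium channel, were called lower as well, by log2 -1.21 and -1.47. The *Cacna1c* and *Kcna5* calls were each lost without the WT library of 8 or 20 weeks or the TNF-Tg library of 14 or 20 weeks (-0.84 to -0.68 and -1.12 to -1.04), and that of *Abcc9* without any library except the TNF-Tg library of 8 weeks (-1.59 to -1.11).

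In the list of nitric oxide and cyclic nucleotide signalling, which also holds kinases and G proteins of contraction, 3 of 32 tested genes were higher and 3 lower (18.75% called, against 6.91% of all) with a median of -0.11, or 0.02 without exclusion of cells by myofibroblast and pericyte genes. These came to 5 higher and 8 lower without the TNF-Tg library of 8 weeks, to 1 and 1 without that of 14 or 20 weeks, to 1 and 2 without the WT library of 14 weeks and by edgeR to 1 and 0 without that of 20 weeks, where 6 were lower at an unadjusted p under 0.05. Without the WT library of 8 weeks edgeR called none, and 3 were higher and 6 lower at an unadjusted p under 0.05. *Gucy1b1*, a subunit of the guanylate cyclase that nitric oxide activates, fell from 310.4, 260.2 and 361 CPM to 212, 153 and 124 CPM (log2 -0.97, SE 0.21, adjusted p = 0.0136). *Pde5a*, which degrades cyclic GMP, fell from 247, 149.8 and 246 CPM to 96.4, 39.3 and 57.2 CPM (log2 -1.84, SE 0.37, adjusted p = 0.0305). The RNA of 1 subunit of the producer of cyclic GMP and that of its breaker thus both fell. No other listed subunit of the cyclase was called. The *Gucy1b1* call was lost without the WT library of 8 or 20 weeks or the TNF-Tg library of 14 weeks (-0.96 to -0.82). That of *Pde5a* was lost without the WT library of 8 or 20 weeks or the TNF-Tg library of 20 weeks (-1.76 to -1.71). *Rock1*, a kinase that keeps myosin light chains phosphorylated, rose from 410.1, 524 and 417 CPM to 718, 699 and 718 CPM (log2 0.65, adjusted p = 0.0102), and was lost without the WT library of 8 or 20 weeks (0.61 and 0.62).

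**Figure D3:**
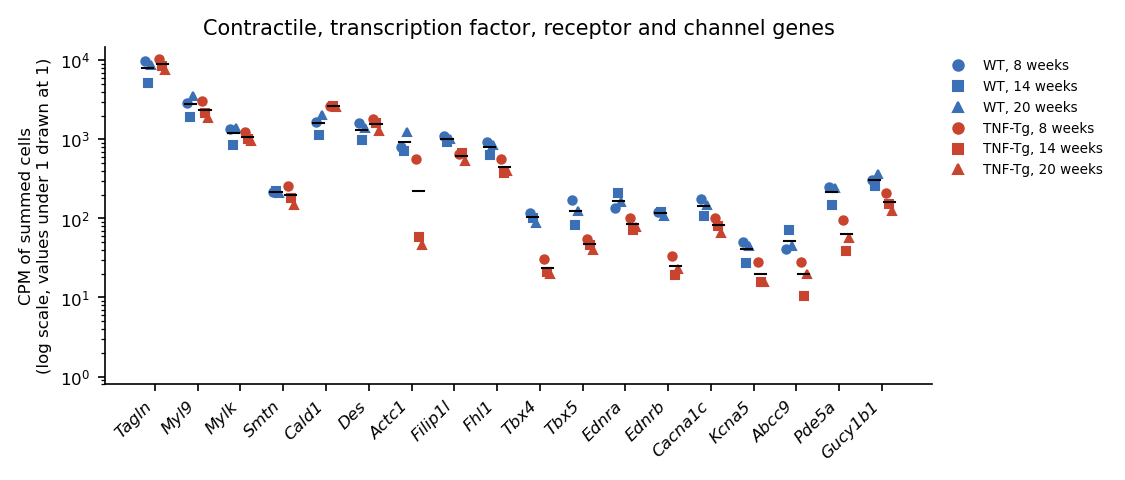
CPM in VSMCs (log y axis, values under 1 drawn at 1 as open symbols) of contractile genes, T-box factors, endothelin receptors, channels and cyclic GMP genes in each library, with bars at the mean of a genotype. *Tagln* overlaps between genotypes, whereas *Tbx4* (88.8 to 118 against 20.0 to 30.7 CPM) and *Ednrb* (108 to 122 against 19.5 to 33.3 CPM) do not.

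The BMP pathway, which restrains growth of vascular cells and whose receptor *BMPR2* is the best-known gene of hereditary pulmonary arterial hypertension, gave 1 call higher and 3 lower among 29 tested genes (13.8% called, against 6.91% of all) with a median of -0.27. The 3 lower came to 8 without the TNF-Tg library of 8 weeks and to 6 with age as a block. They came down to 2 without the WT library of 14 or 20 weeks or the TNF-Tg library of 14 weeks. With all 5 smooth muscle genes required, 2 were lower as well. With thinned cells edgeR called none of 17 tested in either direction, and 2 were lower at an unadjusted p under 0.05. Thinned library sums gave 4 lower of 19 tested. *Bmp5*, a ligand, fell from 77.0, 59.1 and 66.1 CPM to 7.68, 7.92 and 10.2 CPM (log2 -2.98, SE 0.26, adjusted p = 3.2e-05). *Bmp2*, a further ligand, rose from 11.3, 7.88 and 11.3 CPM to 24.7, 49.8 and 64.8 CPM (log2 2.15, SE 0.46, adjusted p = 0.0148), a call lost without any one of the WT libraries (2.05 to 2.25). The type I receptor *Acvrl1* fell from 61.2, 106 and 73.7 CPM to 30.7, 23.4 and 20.3 CPM (log2 -1.71, SE 0.25, adjusted p = 0.000842). *Bmpr2* itself was at 118, 158 and 127 CPM in WT against 125, 127 and 139 CPM in TNF-Tg, with overlapping libraries (log2 -0.04, SE 0.16, adjusted p = 0.971). In the TGF-β pathway 3 of 20 tested genes were higher and 2 lower (25% called, against 6.91% of all) with a median of 0.31. The 3 higher came to 1 without the WT or the TNF-Tg library of 20 weeks and to 5 without the TNF-Tg library of 8 weeks, and the 2 lower to 4 without the latter and to 1 without the WT library of 8 weeks. *Ltbp1*, which stores latent TGF-β in the matrix, rose from 118, 154 and 157 CPM to 282, 301 and 352 CPM (log2 1.11, SE 0.17, adjusted p = 0.00105).

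Matrix genes moved in both directions. Of 20 tested collagens 8 were higher and 1 lower (45% called, against 6.91% of all genes tested), with a median log2 fold change of 0.44. The 8 came down to 1 without the WT library of 20 weeks, to 4 without the WT library of 8 or 14 weeks or the TNF-Tg library of 14 weeks, and to 5 without that of 20 weeks. With VSMCs that held an immune or epithelial UMI left out, edgeR called no collagen higher of 19 tested, and 3 were higher at an unadjusted p under 0.05. *Col6a3*, a chain of the microfibrillar collagen VI, rose from 236, 237 and 227 CPM to 614, 577.5 and 540.3 CPM (log2 1.29, SE 0.14, adjusted p = 9.95e-05), without overlap. *Col1a2*, a chain of fibrillar collagen I, rose from 777, 532 and 519 CPM to 1389, 953 and 1061 CPM (log2 0.87, adjusted p = 0.0194) and was lost without the WT library of 14 or 20 weeks (0.78 and 0.78). *Col5a3*, a minor fibrillar chain, rose by 2.75 on the log2 scale (adjusted p = 0.0193) and was lost without the WT library of 8 or 20 weeks or the TNF-Tg library of 14 weeks (2.15 to 2.60). *Col8a1*, a short-chain collagen of vessel walls, fell from 125, 130.1 and 77.5 CPM to 19.6, 47.5 and 37.3 CPM (log2 -1.59, adjusted p = 0.0114), lost without the WT library of 8 or 14 weeks (-1.49 and -1.44). *Col3a1* was lower in CPM at the means and not called (log2 -0.62, adjusted p = 0.138).

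Among 49 tested glycoproteins, proteoglycans and matrix enzymes, 5 were higher and 5 lower (20.4% called, against 6.91% of all genes tested) with a median of 0.04. These counts came to 8 and 10 without the TNF-Tg library of 8 weeks. They came to 4 and 4 without the WT library of 8 weeks or the TNF-Tg library of 14 weeks, and to 4 and 3 of 39 tested with thinned cells. *Postn*, or periostin, a matricellular protein of injured tissue, rose from 286, 299.6 and 461 CPM to 1577, 1561 and 1222 CPM (log2 2.02, SE 0.19, adjusted p = 6.32e-05). *Bgn*, the proteoglycan biglycan, rose from 727, 867 and 1101 CPM to 2034, 3119 and 3018 CPM (log2 1.58, SE 0.19, adjusted p = 0.000442). On the falling side, *Pcolce2*, an enhancer of collagen processing, went from 442, 339 and 183 CPM to 35.0, 24.1 and 24.5 CPM, 11.95-fold lower (log2 -3.58, SE 0.34, adjusted p = 0.000774). *Timp3*, an inhibitor of metalloproteinases, fell from 2082, 2361 and 973 CPM to 362, 274 and 324 CPM (log2 -2.51, SE 0.34, adjusted p = 0.00865) and was lost without the TNF-Tg library of 14 or 20 weeks (-2.40 and -2.52). *Lama4*, a laminin of the basement membrane around smooth muscle, fell by 1.59 and was lost without any one of the WT libraries or the TNF-Tg library of 20 weeks (-1.62 to -1.48). *Eln*, elastin, was highest at 8 weeks in both genotypes, at 3519, 1289 and 1424 CPM in WT against 3183, 993 and 716 CPM in TNF-Tg, and the genotypes overlapped (log2 -0.38, adjusted p = 0.863). *Mgp*, matrix Gla protein, was at 7117, 7029 and 8591 CPM in WT against 11855, 30515 and 37492 CPM in TNF-Tg and did not pass (adjusted p = 0.117). *Itga2*, the collagen receptor subunit α2, was the 1 gene called of 18 tested integrin and focal adhesion genes (5.56% called, against 6.91% of all genes tested). It had 1 UMI in WT and 197 in TNF-Tg (ratio 35.2, 95% counting interval 6.24 to 1396, adjusted p = 0.000556 by edgeR). In that list 4 more were called lower without the TNF-Tg library of 8 weeks.

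Of 25 growth factors and receptors tested, 5 were called lower and 2 higher (28% called, against 6.91% of all genes tested), with a median of -0.50. The 5 lower came to 3 without the WT library of 20 weeks and to 8 without the TNF-Tg library of 8 weeks. The 2 higher came to 4 without the latter and to 1 without the WT or the TNF-Tg library of 14 weeks. By edgeR none was called higher without the WT library of 8 or 20 weeks, where 2 were higher at an unadjusted p under 0.05. *Pdgfb*, a mitogen for smooth muscle, rose from 2.27, 7.88 and 3.78 CPM to 47.8, 121 and 74.9 CPM (log2 4.29, SE 0.63, adjusted p = 0.00499), lost without the WT library of 8 or 20 weeks (3.99 and 4.23). *Angpt1*, the ligand by which mural cells steady the endothelium, fell from 122, 154 and 139.8 CPM to 41.0, 25.7 and 25.2 CPM (log2 -2.24, SE 0.22, adjusted p = 3.56e-05). *Igf1*, an insulin-like growth factor, was at 58.9, 39.4 and 24.6 CPM in WT against 0, 2.31 and 3.01 CPM in TNF-Tg (log2 -4.21, SE 0.53), and *Wnt5a*, a non-canonical WNT ligand, at 40.8, 23.7 and 15.1 CPM in WT against 1.71, 0.99 and 2.26 CPM in TNF-Tg (log2 -3.98, SE 0.59). *Rbpj*, the nuclear partner of Notch, was the 1 gene called of 9 tested in the Notch pathway (11.1% called, against 6.91% of all genes tested). It fell by log2 -1.08 (adjusted p = 0.00392 by edgeR), while the receptor *Notch3* was not called (log2 -0.99, adjusted p = 0.142). In that pathway 2 were called lower without the WT library of 20 weeks, and 3 without the TNF-Tg library of 8 weeks or with age as a block.

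Of 12 cell cycle genes tested, 2 were higher and 1 lower (25% called, against 6.91% of all). The 2 higher came to 1 without any one of the WT libraries or the TNF-Tg library of 20 weeks and to 3 without that of 8 weeks. Without the TNF-Tg library of 14 weeks, and with all 5 smooth muscle genes required, edgeR called none higher, and 3 and 2 were higher at an unadjusted p under 0.05. The 1 lower was not called by edgeR without the WT library of 8 weeks, where 2 were lower at an unadjusted p under 0.05. Nor was it with all 5 smooth muscle genes required, where 3 were lower at that p. *Ccnd1*, the cyclin of entry into the cycle, rose from 6.80, 19.7 and 5.67 CPM to 139.95, 85.5 and 53.5 CPM (log2 3.28, SE 0.65, adjusted p = 0.0311), and was lost without any one of the WT libraries or the TNF-Tg library of 14 weeks (2.95 to 3.83). *Cdkn1c*, an inhibitor of the cycle, fell from 79.3, 90.7 and 47.2 CPM to 29.9, 27.4 and 27.5 CPM (adjusted p = 0.00418), lost without the WT library of 8 weeks (-1.19). In the glycolysis and hypoxia list 6 of 17 tested genes were higher and 2 lower (47.1%, against 6.91% of all), with a median of 0.45, and the 6 came to 2 without the WT library of 8 weeks, 3 without the TNF-Tg library of 14 weeks and 10 without that of 8 weeks. The 2 lower came to 1 without the WT library of 8 or 20 weeks or the TNF-Tg library of 14 or 20 weeks. *Ldha*, lactate dehydrogenase, rose from 159, 185 and 172 CPM to 297, 409.9 and 312 CPM (log2 0.97, SE 0.17, adjusted p = 0.00293), and *Eno1*, enolase, rose by 1.29 (SE 0.21). The hypoxia-inducible factors moved in opposite directions, *Hif1a* up from 138, 130.1 and 172 CPM to 309, 276 and 223 CPM (log2 0.83, adjusted p = 0.012) and *Epas1* down from 562, 591 and 525 CPM to 325, 265 and 213 CPM (log2 -1.08, SE 0.17, adjusted p = 0.00136), *Hif1a* being lost without the WT library of 8 or 14 weeks (0.76 and 0.80). Of 22 tested immediate-early and heat-shock genes, which respond to handling of the tissue among other stresses, 1 was called higher and 2 lower (13.6%, against 6.91% of all), with a median of -0.16. These counts rest on single libraries, coming to 3 and 6 without the TNF-Tg library of 8 weeks, to 1 and 1 without that of 20 weeks, to 1 and 0 by edgeR without that of 14 weeks (4 lower at an unadjusted p under 0.05) and to 0 and 4 without the WT library of 20 weeks (1 higher at that p). Without the WT library of 8 or 14 weeks edgeR called none, and 1 and 3 were higher and 3 and 3 lower at an unadjusted p under 0.05.

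**Figure D4:**
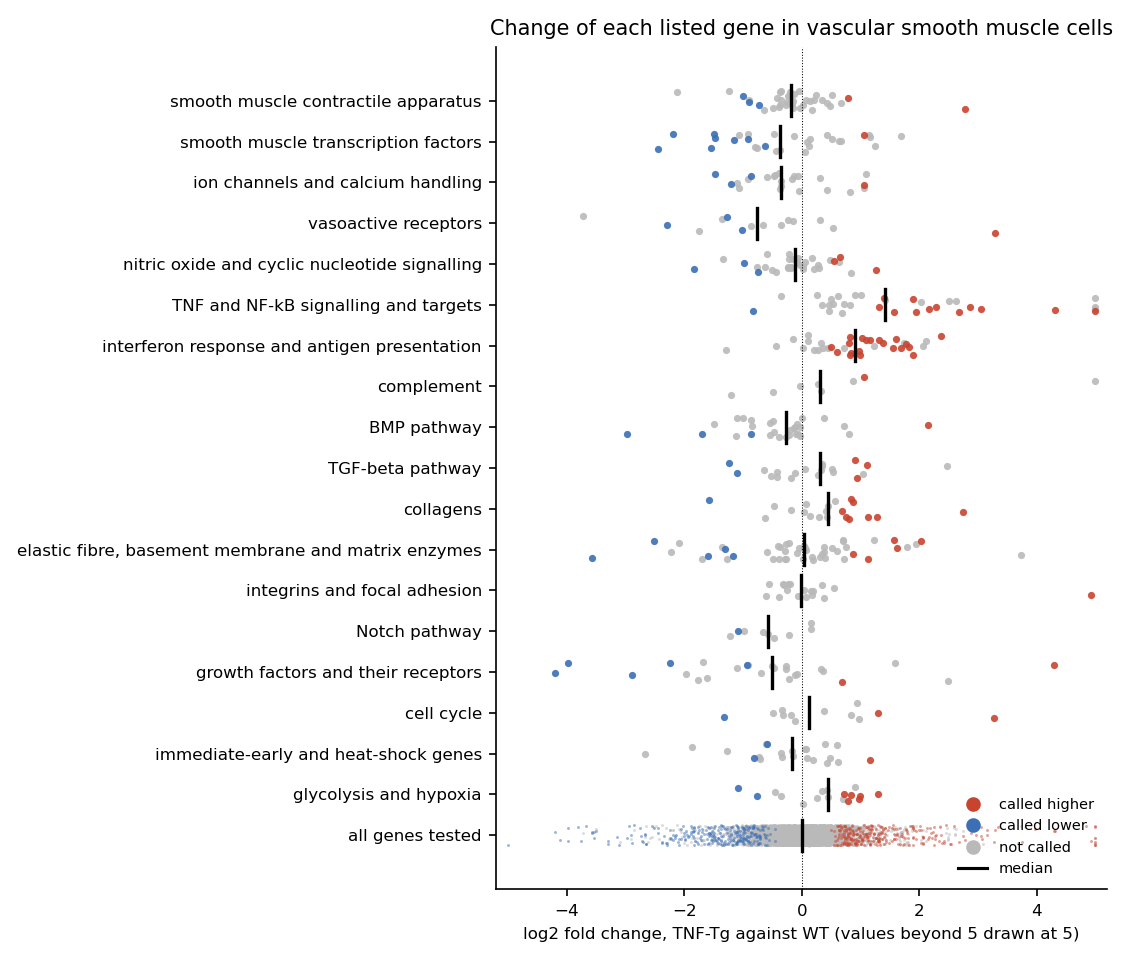
Log2 fold change (x axis, TNF-Tg over WT) of every tested gene of 18 gene lists, with all genes tested for scale. Red points were called higher, blue points lower, grey points were not called, black bars are medians, and values beyond 5 are drawn at 5. The interferon and antigen presentation list (median 0.90) and the TNF and NF-κB list (1.42) lie furthest to the right.

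The largest changes outside these groups joined genes of several kinds. *Sncg*, γ-synuclein, a small protein of nerve and muscle cells, rose from 120.1, 118 and 266 CPM to 1006, 1503 and 1131 CPM, 6.88-fold (log2 2.78, SE 0.34, adjusted p = 0.00506). At 2000 UMIs per cell it was seen in 13.2%, 5.88% and 25.9% of the VSMCs of WT and 58.6%, 86.1% and 72.6% of those of TNF-Tg, against 0.832% to 2.33% of endothelial cells over the 6 libraries. *Igfbp7*, a secreted binding protein of growth factors, rose from 3388, 2495 and 3253 CPM to 7804, 11778 and 8953 CPM (log2 1.62, SE 0.17, adjusted p = 0.000142), and *Tspo*, a protein of the outer mitochondrial membrane, from 412, 414 and 431 CPM to 986, 1840.1 and 1614 CPM (log2 1.80, SE 0.20). *Dclk1*, a microtubule-associated kinase, rose from 34.0, 51.2 and 62.3 CPM to 235, 218 and 183 CPM (log2 2.07). *Enpep*, the aminopeptidase that cuts angiotensin II, rose from 4.53, 7.88 and 11.3 CPM to 32.4, 85.1 and 66.6 CPM (log2 2.93), and was lost without any one of the WT libraries (2.63 to 3.44).

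Among the steepest falls, *Prex2*, an exchange factor for the GTPase Rac, went from 92.9, 106 and 100.1 CPM to 5.97, 5.28 and 7.53 CPM, 15.9-fold lower (log2 -3.99, SE 0.24, adjusted p = 8.84e-07). *Spock2*, a matrix proteoglycan, went from 52.1, 82.8 and 37.8 CPM to 3.41, 1.98 and 4.14 CPM (log2 -4.12, SE 0.40, adjusted p = 3.56e-05). *Ism1*, a secreted protein, fell from 90.6, 74.9 and 45.3 CPM to 4.27, 3.96 and 9.41 CPM (log2 -3.51), and *Podn*, a small proteoglycan, by 2.71. In each of these the highest TNF-Tg library was below the lowest WT library, and the *Prex2*, *Spock2* and *Podn* calls were kept in every alternative in which the gene was tested. Of 16 genes that the study names for these cells, 14 were tested, with 6 higher and 2 lower and a median of 0.82. The share called was 57.1%, against 6.91% of all genes tested. That list was chosen on these samples and is not independent evidence of a direction.

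Among markers of other cells, some sums moved with genotype and others did not. Adventitial genes of the rule summed to 61.2, 106 and 47.2 CPM in WT against 6.83, 9.57 and 16.9 CPM in TNF-Tg, and myofibroblast genes of the rule to 659, 670.1 and 359 CPM in WT against 311, 266 and 282 CPM in TNF-Tg. The 10 adventitial genes outside the rule overlapped between genotypes, at 4591, 4506 and 2971 CPM in WT against 4102, 2954 and 3964 CPM in TNF-Tg (2 called higher and 1 lower), as did the list of airway smooth muscle and myofibroblast genes outside the rule, at 2749, 1746 and 2299 CPM against 2743, 2642 and 2264 CPM. *Hhip*, a myofibroblast and airway smooth muscle gene of the rule, was at 202, 402 and 56.7 CPM in WT against 0.66 CPM at 14 weeks as its highest in TNF-Tg, and 8.62%, 5.88% and 1.72% of the VSMCs of WT held it. Alveolar fibroblast genes summed to 1765, 1589 and 1672 CPM in WT against 1638, 886 and 978 CPM in TNF-Tg, led by *Itga8*, with *Fgfr4* at 0. With all VSMCs left out that held a UMI of *Hhip*, *Inmt*, *Col13a1*, *Pdgfra* or an adventitial gene, an alternative chosen after the data were seen, 426 genes were called and 368 of the 526 earlier calls still tested were kept. Endothelial genes outside the rule, led by *Cdh13*, summed to 446, 572 and 423 CPM in WT against 306, 347 and 227 CPM in TNF-Tg. *Ednrb* belongs to this list and was the 1 gene called lower among its 4 tested. Pericyte genes outside the rule summed to 1974, 1794 and 1693 CPM in WT against 3037, 2848 and 2153 CPM in TNF-Tg, and, without the called matrix gene *Postn*, to 1688, 1494 and 1232 CPM against 1460.1, 1288 and 931 CPM. The 3 pericyte genes of the rule summed to 177, 146 and 88.8 CPM in WT against 137, 99.99 and 53.5 CPM in TNF-Tg. The part of such cells in the falls of *Tbx4*, *Igf1*, *Wnt5a* or *Ism1* was otherwise not tested.

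Immune genes summed to 4.53, 7.88 and 5.67 CPM in WT against 4.27, 25.1 and 505 CPM in TNF-Tg, where *Lyz2*, a macrophage gene, was highest at 20 weeks and 1 cell held 394 of its 727 UMIs. The T cell genes *Cd3e* and *Cd3d* were at 0. Epithelial genes summed to 63.4, 35.5 and 185 CPM in WT against 127, 97.7 and 55.3 CPM in TNF-Tg, with *Epcam*, *Cdh1* and *Sftpd* at 0. With the 379 VSMCs that held any immune or epithelial UMI left out, 342 genes were called of 5037 tested. Cardiac muscle genes summed to 850, 796 and 1269 CPM in WT against 674, 127 and 179 CPM in TNF-Tg, led by *Actc1* except in the TNF-Tg library of 20 weeks, where *Tnnt2* led, while *Nppa*, *Sln* and *Mybpc3* were at 0 in every library. A doublet caller marked 21 of the 641 VSMCs, and without them 554 genes were called.

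Whether a genotype difference was particular to VSMCs was tested by an interaction term against 2 neighbouring gates in the same libraries, the adventitial fibroblasts (676 cells) and the myofibroblasts (1062 cells, 527 of them with at least 4 of the smooth muscle genes). The genotype difference of VSMCs differed from that of adventitial fibroblasts in 236 of 9880 genes (2.39%), 104 of them with the higher log2 fold change in VSMCs and 132 with the lower. Against myofibroblasts it differed in 472 of 10636 genes (4.44%), 118 higher in VSMCs and 354 lower. *Igfbp7* rose more in VSMCs than in adventitial fibroblasts, by 1.52 on the log2 scale (SE 0.14, adjusted p = 7.9e-06 by edgeR), and so did *B2m* (1.02, SE 0.18, adjusted p = 0.00439), while *Postn* rose less than in myofibroblasts, by -1.70 (SE 0.20, adjusted p = 0.000806). The *Tbx4* fall was larger than in adventitial fibroblasts (-1.37, SE 0.35, adjusted p = 0.0497) and did not pass against myofibroblasts (-0.75, adjusted p = 0.105). The rise of *Sncg* did not differ past the threshold from that in either gate (1.57, SE 1.97, adjusted p = 0.817, and -0.55, SE 0.23, adjusted p = 0.261).

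The size of such differences is shown by levels in both gates. *Igf1* averaged 41.0 CPM in VSMCs of WT and 1.77 CPM in those of TNF-Tg, but 321 and 329 CPM in adventitial fibroblasts (interaction -4.14). *Serpina3n*, an acute-phase inhibitor, averaged 4.91 and 45.4 CPM in VSMCs of WT and TNF-Tg and 225 and 90.0 CPM in adventitial fibroblasts (4.22). *Ptprz1*, a receptor tyrosine phosphatase, averaged 130.2 and 19.1 CPM in VSMCs and 27.7 and 26.5 CPM in myofibroblasts (-2.90). *Ccl2* averaged 0 and 1013 CPM in VSMCs, 1.80 and 298 CPM in myofibroblasts, 0 and 1499 CPM in pericytes, and 714 and 399.8 CPM in adventitial fibroblasts, where single WT libraries ranged from 5.16 to 1709 CPM. Neither interaction passed for *Ccl2* (adjusted p = 0.368 and 0.603). *Acta2* averaged 10023 and 9847 CPM in VSMCs and 3841 and 8392 CPM in myofibroblasts, a description only, since the rule used this gene.

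**Figure D5:**
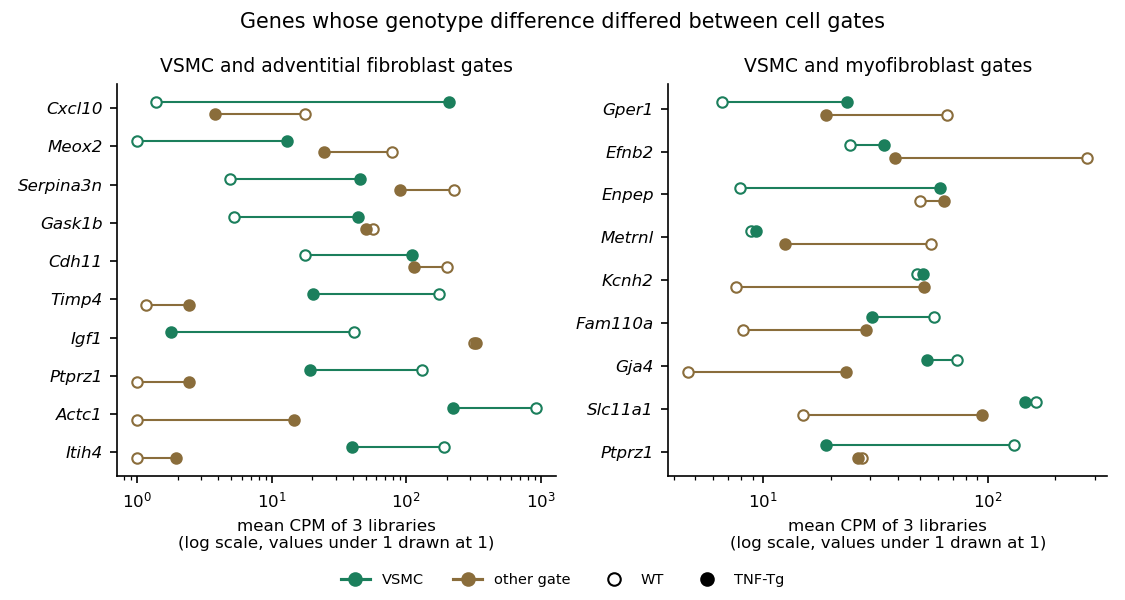
Mean CPM (log x axis) in WT (open) and TNF-Tg (filled) of the genes whose genotype difference differed most between VSMCs (green) and adventitial fibroblasts (brown, left) or myofibroblasts (brown, right). *Igf1* falls from 41.0 to 1.77 CPM in VSMCs beside 321 and 329 CPM in adventitial fibroblasts.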

How the data were processed

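Single-cell 3′ RNA-seq was made from 6 libraries of sorted lung cells, and the deposited values are whole UMI counts per gene and barcode from Cell Ranger on mm10. Per the labels, Cell Ranger 5.0.0 was used. Per the file headers, the libraries of 8 weeks came from version 5.0.0 and those of 14 and 20 weeks from 6.0.1, which is balanced between genotypes but not between ages. The authors pooled mice by genotype and age. The 6 libraries hold 33680696 to 72655387 UMIs over 43545 barcodes.

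Cells with at least 500 genes and at most 10% mitochondrial UMIs were kept. The counts of the chosen cells were summed per library and tested with edgeR 4.0.16 (TMM, filterByExpr, quasi-likelihood test, Benjamini-Hochberg adjustment over all genes tested) in R 4.3.3, TNF-Tg against WT. Interactions were fitted on summed counts of both gates with library as a block. DESeq2 1.42.0, RLE size factors, no filter, age as a block, each library left out, stricter cell limits, doublet removal with scanpy 1.11.5 (Scrublet) and thinning were alternatives. Permutation tests were exact and two-sided, and scipy 1.17.1 gave exact 95% intervals, which cover counting error only. Scripts were tested on simulated data.

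The genes named were those of the rule, those the study names, the 12 largest changes in each direction (mean of at least 50 CPM, libraries not overlapping), up to 4 called genes per direction in each list (at least 20 CPM), members of at least 100 CPM not called, and the 5 largest interactions per direction. *Nfkbia*, *Nfkb2*, *B2m* and *H2-K1* were chosen after their values were seen, as were *Nfkb1*, *Rel*, *Nfkbib*, *Rela*, *Nfkbie*, *Ccl7*, the genes compared between gates other than the largest interactions, and those followed by shares of cells. The members and lists were chosen with earlier results of these data known, and 3 listed symbols are absent from the files. A few items that the rule names are not reported here.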

Additional observations from a re-analysis of the deposited data

Results flagged for a closer look

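For 19 results given here the genotype difference of VSMCs differed from that of a neighbouring gate in the same libraries, by an interaction term in edgeR's quasi-likelihood test with library as a block and Benjamini-Hochberg adjustment over all genes tested. Values are the difference of the log2 fold changes (TNF-Tg over WT), VSMCs minus the other gate, and means are over 3 libraries of a genotype. These are the largest of the called interactions and not a sample of them.

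Against adventitial fibroblasts, 5 genes moved more upward in VSMCs. *Cxcl10* differed by 9.23 (adjusted p = 2.65e-07), with means of 1.39 and 209 CPM in VSMCs of WT and TNF-Tg and of 17.7 and 3.78 CPM in adventitial fibroblasts, and in the TNF-Tg libraries 1 cell each held 232 of its 329, 805 of its 891 and 86 of its 141 UMIs at 8, 14 and 20 weeks. *Meox2*, a homeobox factor, had 0 UMIs in VSMCs of WT and 99 in those of TNF-Tg, at least 5.89-fold, and means of 77.9 and 24.4 CPM in adventitial fibroblasts. Its fitted difference of 9.01 (adjusted p = 0.0039) depends on the small count the fit adds to 0 and is no measure of size, nor is its place among the largest, and the same holds for *Itih4*, with 0 UMIs in adventitial fibroblasts of WT. *Serpina3n* differed by 4.22 and *Gask1b*, a Golgi protein, by 3.24, from 5.27 to 43.9 CPM in VSMCs beside 57.0 and 49.8 CPM. *Cdh11*, a mesenchymal cadherin, differed by 3.18, from 17.8 to 109.9 CPM in VSMCs beside 200.4 and 115 CPM in adventitial fibroblasts. A further 5 had a lower log2 fold change in VSMCs, namely *Itih4* (-6.89), *Actc1* (-6.57), *Ptprz1* (-5.70), *Igf1* (-4.14) and *Timp4* (-3.88). *Itih4*, *Actc1*, *Ptprz1* and *Timp4* were nearly absent from adventitial fibroblasts of WT, at means of 0 to 1.16 CPM, while *Igf1* was at 321 and 329 CPM there.

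Against myofibroblasts, *Gper1* (3.52), *Efnb2* (3.43), *Enpep* (2.55) and *Metrnl* (2.46) had a higher log2 fold change in VSMCs. For *Efnb2*, the ligand that marks arterial cells, means were 24.4 and 34.6 CPM in VSMCs and 277 and 38.6 CPM in myofibroblasts, so that the difference lay mostly in the myofibroblasts. *Ptprz1* (-2.90), *Slc11a1* (-2.82), *Gja4* (-2.78), *Fam110a* (-2.77) and *Kcnh2* (-2.76) had a lower log2 fold change in VSMCs than in myofibroblasts, which need not be a fall in VSMCs. For *Kcnh2*, a potassium channel, means were 48.6 and 51.3 CPM in VSMCs and 7.54 and 52.0 CPM in myofibroblasts, so that the difference lay in the myofibroblasts. The myofibroblast gate held cells with at least 4 smooth muscle genes, 184 of 581 in WT and 343 of 481 in TNF-Tg.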

How the results depend on the processing

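The higher share of VSMCs in TNF-Tg had no overlap of libraries in any setting, the difference of means ranging from 1.43 to 3.13 percentage points of the cells kept and from 13.4 to 36.1 points of the 4 gates. Of 95 named genes that were called, 27 kept direction and call under every alternative in which they were tested. Beside the 552 calls, RLE size factors gave 551 (549 of the 552 kept), DESeq2 517 (446 kept), and leaving out 1 library 217 (without WT of 8 weeks, 198 kept) to 943 (without TNF-Tg of 8 weeks, 522 kept of 528 tested there). No filter on low counts gave 1068 with a median shift of 0.15 in log2, all 5 smooth muscle markers required 337, no immune or epithelial UMI 342, library sums thinned to equal depth 291 and cells thinned to 2000 UMIs 175, where 128 of the 327 calls still tested were kept and 1 changed sign. Fewer genes were tested in these last settings. Without exclusion by myofibroblast and pericyte genes, chosen after the data were seen, 989 were called, 379 of the 552 were kept and 5 changed sign. Interactions with adventitial fibroblasts (236) came to 529 with no filter, 133 with thinned sums and 111 to 464 with 1 library left out. Those with myofibroblasts (472) came to 767, 223 and 210 to 673, and to 204 with myofibroblasts under 4 smooth muscle genes only, chosen after the data were seen. *Dcn*, not called (0.31), ranged from -1.49 without the TNF-Tg library of 20 weeks, a reversal, to 0.76 without the WT library of 20 weeks, and without the exclusion *Efnb2* (-1.29), *Ifit3* (-0.40), *Kcnh2* (0.99) and *Mcam* (0.65) reversed; the cause was not tested. Libraries of one age were not taken as pairs across genotypes, since their deviations from the genotype mean over the 7990 genes tested correlated by 0.06, 0.04 and -0.06, although ages share a Cell Ranger version and single genes such as *Eln* followed age in both genotypes. Age as a replicate block gave 610 calls, 487 of the 552 among them. VSMCs with no marker of any other cell numbered 3, 1 and 6 in WT, too few for a comparison, which was not run. The depth of 34 VSMCs in the smallest library limits genes of low level most.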

Other observations

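In pericyte-gated cells *Acta2* averaged 2064 CPM in WT and 7803 CPM in those of TNF-Tg, and *Myh11* 698 and 1767 CPM, while the pericyte genes of the rule averaged 1348 and 398 CPM for *Higd1b* and 3105 and 716 CPM for *Cox4i2*. These values rest on genes that define the gates, and no test was made of them.

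Single cells carried some values in VSMCs of TNF-Tg. *Spp1*, osteopontin, was at 0 CPM in every WT library and at 0, 42.0 and 574 CPM in TNF-Tg at 8, 14 and 20 weeks, with 56.8% of its UMIs at 20 weeks in 1 cell. *Mki67*, a marker of dividing cells, had 85 UMIs in the TNF-Tg library of 14 weeks, 61.2% of them in 1 cell. *Timp1*, a metalloproteinase inhibitor, had 50.1% of its UMIs at 14 weeks and 42.0% at 20 weeks in 1 cell of each library. Erythroid genes, led by *Hbb-bs* except in the WT library of 20 weeks, summed to 204, 23.7 and 1.89 CPM in WT against 169, 23.1 and 30.5 CPM in TNF-Tg at 8, 14 and 20 weeks, highest at 8 weeks in both genotypes, and glial genes to at most 11.3 CPM. Mesothelial and cartilage genes came to at most 22.97 and 15.4 CPM.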
